A study of Mus musculus with 6 samples.

Results

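The genes described here encode the partners through which Argonaute proteins silence a messenger RNA and the enzymes that then take it apart. They are 41 genes chosen by name for their known function, of 31310 genes with a name and a usable transcript in the deposited table. All 41 were found there, and all 41 were expressed highly enough to enter the fit of 13207 genes. They comprise 3 GW182 proteins, 2 helicases linked to Argonaute or CCR4-NOT, 2 subunits of PAN2-PAN3, 10 genes of the CCR4-NOT complex, 3 BTG/TOB adaptors, 9 decapping factors, 2 exonucleases, 4 nonsense-mediated decay genes, 2 poly(A)-binding proteins and 4 proteins that bind 3′ untranslated regions. PolyA RNA had been sequenced, with strand kept, from a clonal line of mouse embryonic stem cells, TT-FHAgo2, in which the level of Argonaute 2 (Ago2) depends on doxycycline.

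The groups compared were cells taken off doxycycline for 96 h and cells given 2.5 µg/mL doxycycline for 48 h, the dose that the labels assign to wild-type Ago2 levels. Both had been propagated in 0.1 µg/mL doxycycline, and each has 2 libraries prepared by the method the labels name UTP. They therefore differ in the drug itself and in the time of treatment as well as in Ago2, and they represent 1 clonal line. Values are FPKM, fragments on a transcript scaled to its length and to the library total, summed over the isoforms of a gene. The libraries of each condition carry the numbers 0 and 1 in the deposited table, and paired values below are in that order. Log2 changes were taken from log2(FPKM + 0.5), without minus with doxycycline, so that those of weakly expressed genes are understated, and errors are SD over n = 2 libraries unless given as SE. The labels do not say that libraries came from separate cultures, so p-values measure only how far these samples scatter, and that scatter may be technical.

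An Argonaute loaded with a microRNA finds matching sites in the 3′ untranslated region of a messenger RNA and is bound by a GW182 protein, the scaffold that brings in the deadenylase complexes PAN2-PAN3 and CCR4-NOT. These shorten the poly(A) tail, the helicase DDX6 and its partners pass the RNA on to decapping by DCP2, and the exonuclease XRN1 degrades what is left from its 5′ end. The same enzymes serve other routes of decay, which start from AU-rich elements, Pumilio sites, BTG/TOB adaptors or premature stop codons.

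Ago2 itself, the gene under doxycycline control, measured 28.7 and 28.8 FPKM without doxycycline and 35.2 and 36.7 FPKM with it (log2 change -0.32, SE 0.08, limma adjusted p = 0.0287). Its RNA was slightly lower in both libraries off the drug. The call was lost without the off-drug library numbered 0 (adjusted p = 0.0881) or 1 (0.0752) and without the on-drug library numbered 0 (0.134) or 1 (0.205), and the adjusted p reached 0.412 with the most abundant isoform alone. The values do not separate the transgene from endogenous transcripts. All 8 markers of embryonic stem cells on a short list stood between 30.3 and 2150 FPKM, and the groups of 5 of them were apart. Nanog (449 and 550 FPKM without, 315 and 371 FPKM with doxycycline) and Sox2 (275 and 247 FPKM without, 220 and 209 FPKM with it) were the higher of these off the drug. Zfp42 (378 and 423 FPKM without, 544 and 581 FPKM with doxycycline), Esrrb (211 and 234 FPKM without, 257 and 270 FPKM with it) and Klf4 (30.3 and 35.4 FPKM without, 44.4 and 43.7 FPKM with it) were the lower. The sums of all 8 were 4073 and 4632 FPKM without doxycycline against 3853 and 4321 FPKM with it, of which Dppa5a alone gave 1785 and 2150 FPKM without and 1492 and 1817 FPKM with it. Of 5 fibroblast or mesenchymal markers 1, Thy1, reached 1 FPKM in all libraries and Col3a1 was at 0, and of 2 neural markers Pax6 did, at 3.91 to 5.92 FPKM. None of 3 trophectoderm, 3 primitive endoderm or 2 mesoderm markers did. Summed marker levels ran from 2.75 to 2.92 FPKM without and 2.33 to 2.49 FPKM with doxycycline for fibroblast or mesenchymal cells, from 1.35 to 1.48 without and 0.576 to 0.907 with it for primitive endoderm, and from 0.315 to 0.346 without and 0.170 to 0.252 with it for mesoderm. They ran the other way for trophectoderm, from 0.360 to 0.405 FPKM without and 0.499 to 0.651 FPKM with doxycycline, and overlapped for neural markers, from 3.91 to 5.92 FPKM without and 4.30 to 5.40 FPKM with it. Within primitive endoderm, Gata4 was higher off the drug (1.27 and 1.39 FPKM without, 0.498 and 0.814 FPKM with doxycycline), as was Sox17. Gata6 was lower (0.0408 and 0.0426 FPKM without, 0.0777 and 0.0713 FPKM with doxycycline). Within mesoderm, Mixl1 was higher (0.346 and 0.315 FPKM without, 0.120 and 0.123 FPKM with doxycycline). T was lower (0 FPKM without, 0.0497 and 0.129 FPKM with doxycycline). The part of other cells in the results was not tested. In bulk RNA, fewer cells of a type and less RNA per cell cannot be told apart. Steps between low values gave a depth of 46.8 M fragments for the library without doxycycline and 46.5 M (M, mega) for the library with doxycycline that carry the number 1. The depth of the libraries with the number 0 could not be read.

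Of the 41 genes, 10 were higher without doxycycline, 6 were lower and 25 did not pass limma at an adjusted p of 0.05. The higher genes were Tnrc6a, Tnrc6b, Mov10, Cnot6, Cnot6l, Tob1, Tob2, Btg1, Patl1 and Zfp36, and the lower ones Ddx6, Lsm1, Dcp1b, Upf3b, Pabpc1 and Pabpc4. Among all 13207 genes tested, 19.7% were higher and 21.3% were lower. The members' shares, 24.4% higher and 14.6% lower, lie near that background, so the counts of calls are no result particular to them. Libraries of the 2 conditions did not overlap for 31 members (75.6%), against 73.1% of all genes. The median log2 change was -0.02 over the members and -0.06 over all genes tested. The members were the more strongly expressed, with a median of 29.6 FPKM against 11.5 FPKM over all genes tested. Their median absolute log2 change was smaller, 0.187 against 0.314, and the part of expression level in this was not tested. Of the members, 6 (14.6%) were called with a change of at least 1 on the log2 scale, against 6.70% of all genes. These 6 were Mov10, Cnot6l, Tob1, Btg1, Zfp36 and Pabpc4. Cnot6l (1.06) and Btg1 (1.02) lay close to that cutoff, and Tob2 (0.99) just under it. Cnot6l was at 0.95 with isoforms of 500 nt or more, and Btg1 at 0.96 with library medians set equal. Of all calls, 48.1% were higher, against 38.0% with the library medians set equal and 67.6% with TPM (transcript shares scaled to a fixed total), and the members then split into 10 higher and 10 lower, or 14 higher and 3 lower. The lower count was 2 without the off-drug library numbered 0 and 1 without the on-drug library numbered 0 or that numbered 1, while 8 to 10 members were higher whichever library was left out. All calls numbered 5417, against 3480 and 3229 without the on-drug libraries numbered 0 and 1.

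**Figure D1:**
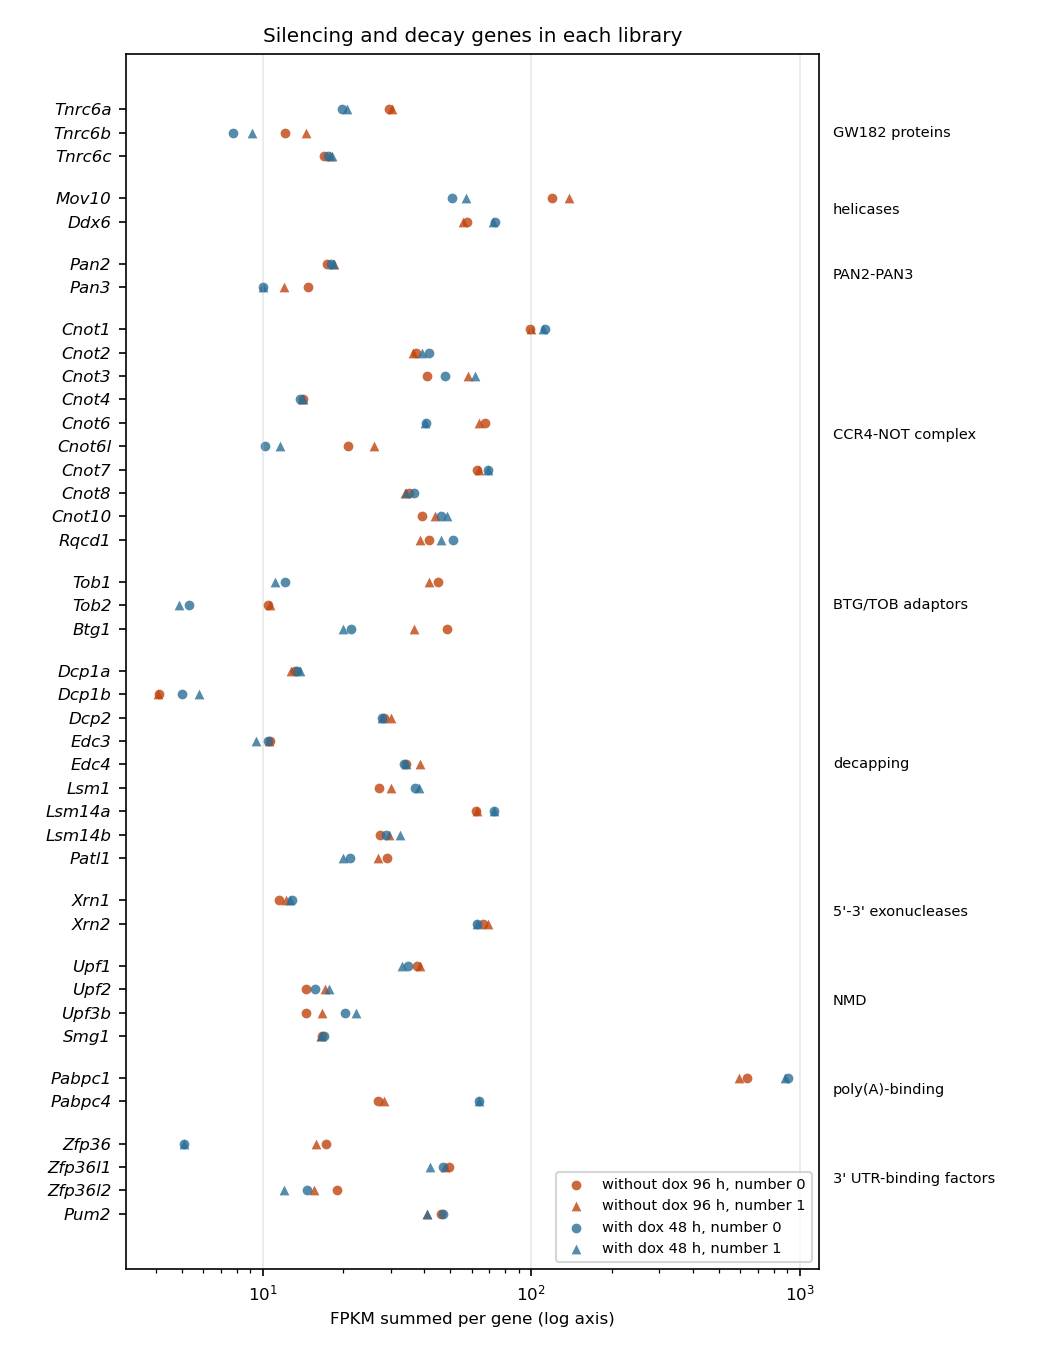
FPKM of each of the 41 genes in each library, on a log axis, grouped by role. Colours mark the condition, with orange-red for the libraries without and blue for those with doxycycline, and circles and triangles mark the library numbers 0 and 1. Tob1, Mov10 and Zfp36 stand far to the right without doxycycline, Pabpc4 stands far to the left, and the markers of most other genes lie close together.

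Sites for the microRNA families miR-290 and miR-302, miR-17 and let-7 were read in 3′ untranslated regions. The longest region annotated for a gene was taken (GENCODE mouse release M21, build GRCm38). The sequences are shown because the seed, bases 2 to 8 from the 5′ end and here in capitals, is what pairs with a target. The miR-290 and miR-302 clusters, the main microRNAs of embryonic stem cells, share a seed, and that of miR-17 is offset from it by a single base. Sequences are from RefSeq (build GRCm38.p6), written 5′ to 3′.
miR-291a-3p: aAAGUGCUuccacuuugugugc
miR-302d-3p: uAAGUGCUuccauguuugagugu
miR-17-5p: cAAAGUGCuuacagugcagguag
let-7a-5p: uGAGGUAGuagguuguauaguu

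Of the 41 members, 11 held a match of 7 or 8 bases to the seed of the miR-290 and miR-302 family. Among the 10 higher genes 5 did, namely Tnrc6b, Cnot6, Cnot6l, Tob2 and Btg1, and among the 6 lower genes 1 did, Dcp1b. A further 5 of the 25 genes that were not called held at least 1, namely Tnrc6c, Pan3, Dcp2, Lsm14b and Zfp36l2. The match in Lsm14b was to bases 2 to 7 with the A. Dcp2 held 5 matches of 7 bases in a region of 7240 nt, the most of any member, and its log2 change was 0.06. The full match with an A opposite the first base of the microRNA, an 8mer, occurred in Cnot6, Cnot6l, Btg1 and Dcp1b. The sites printed here, on the DNA strand of the transcript with the match in capitals, are those of the called genes, apart from a further 7mer in Cnot6, and for contrast those of Tnrc6c and Pan3.
Cnot6 (8mer): gagaggggaggAGCACTTActcatctctgc
Cnot6l (8mer): cacattatcaaAGCACTTAaatttgcttga
Btg1 (8mer): gacttttacctAGCACTTAaaatgtataaa
Dcp1b (8mer): gttcaatccctAGCACTTAaaaaaagaaat
Tob2 (7mer): atagggaggttAGCACTTtttctaattgga
Tnrc6b (7mer): gggaacatgctAGCACTTgtgtgatatccc
Tnrc6b (second 7mer): ccttttatcccAGCACTTgagaggcagaag
Tnrc6c (7mer): gcggccggccgAGCACTTggacgtggtggt
Pan3 (7mer): gacagactccaAGCACTTgcaactgatgtt

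Long regions hold more matches by their length alone, and the longest regions annotated for the higher genes were long. The median annotated region was 2401 nt for the higher genes and 1185 nt for the lower genes. It was 1346 nt for the genes not called and 967 nt over 20935 symbols. Over all symbols 17.8% held a match of the miR-290 and miR-302 family and 2.98% an 8mer, but among regions within 25% of the length of each gene's own the share was 85.1% for Tnrc6b, 62.8% for Cnot6l, 44.7% for Btg1, 41.2% for Cnot6 and 31.0% for Tob2. For Dcp2, which was not called, it was 63.6%. These like-length shares count any match of 7 or 8 bases. That of 8mers was not computed, so 2.98% is no background for the long annotated regions of Cnot6, Cnot6l and Btg1. Annotated regions need not be those expressed in these cells. The 1817-nt isoform of Btg1, shorter than its annotated region of 4166 nt, measured 48.6 and 36.4 FPKM without doxycycline. With doxycycline it measured 21.2 and 19.7 FPKM. The 5010-nt isoform measured 0.203 and 0.195 FPKM without and 0.215 and 0.175 FPKM with doxycycline. The 44.7% of Btg1 thus belongs to a region that little of its RNA could hold. Tob1, Mov10 and Zfp36, which changed most among the higher genes, held no match of this family in regions of 767, 313 and 774 nt. Matches of 7 or 8 bases to miR-17 stood in 16 of the 41 genes (18.7% of all symbols) and to let-7 in 9 (15.0% of all symbols). For let-7 only Tob2 and Edc3 matched the whole seed. The members' median region was 1536 nt, so shares over all symbols are no background for these counts. Among regions of like length the miR-17 share ran from 3.17% for Cnot3 to 77.7% for Tnrc6b. That of let-7 ran from 4.33% for Cnot3 to 75.5% for Tnrc6b. In Cnot6 and in Tob2 a match to miR-17 overlapped one of the miR-290 and miR-302 family, so the 2 are not separate. The heptamer TATTTAT of AU-rich elements, the kind of sequence that the Zfp36 proteins bind, was read on the transcript strand. It stood in 17 members and in 27.7% of all symbols. Zfp36 held 3 copies, as did Zfp36l1 and Zfp36l2, which were not called, and Cnot6l. Among regions of like length the share was 19.2% for Zfp36, 37.9% for Zfp36l1, 37.8% for Zfp36l2 and 74.6% for Cnot6l. A match is a description of these letters and not evidence that a site is used.

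**Figure D2:**
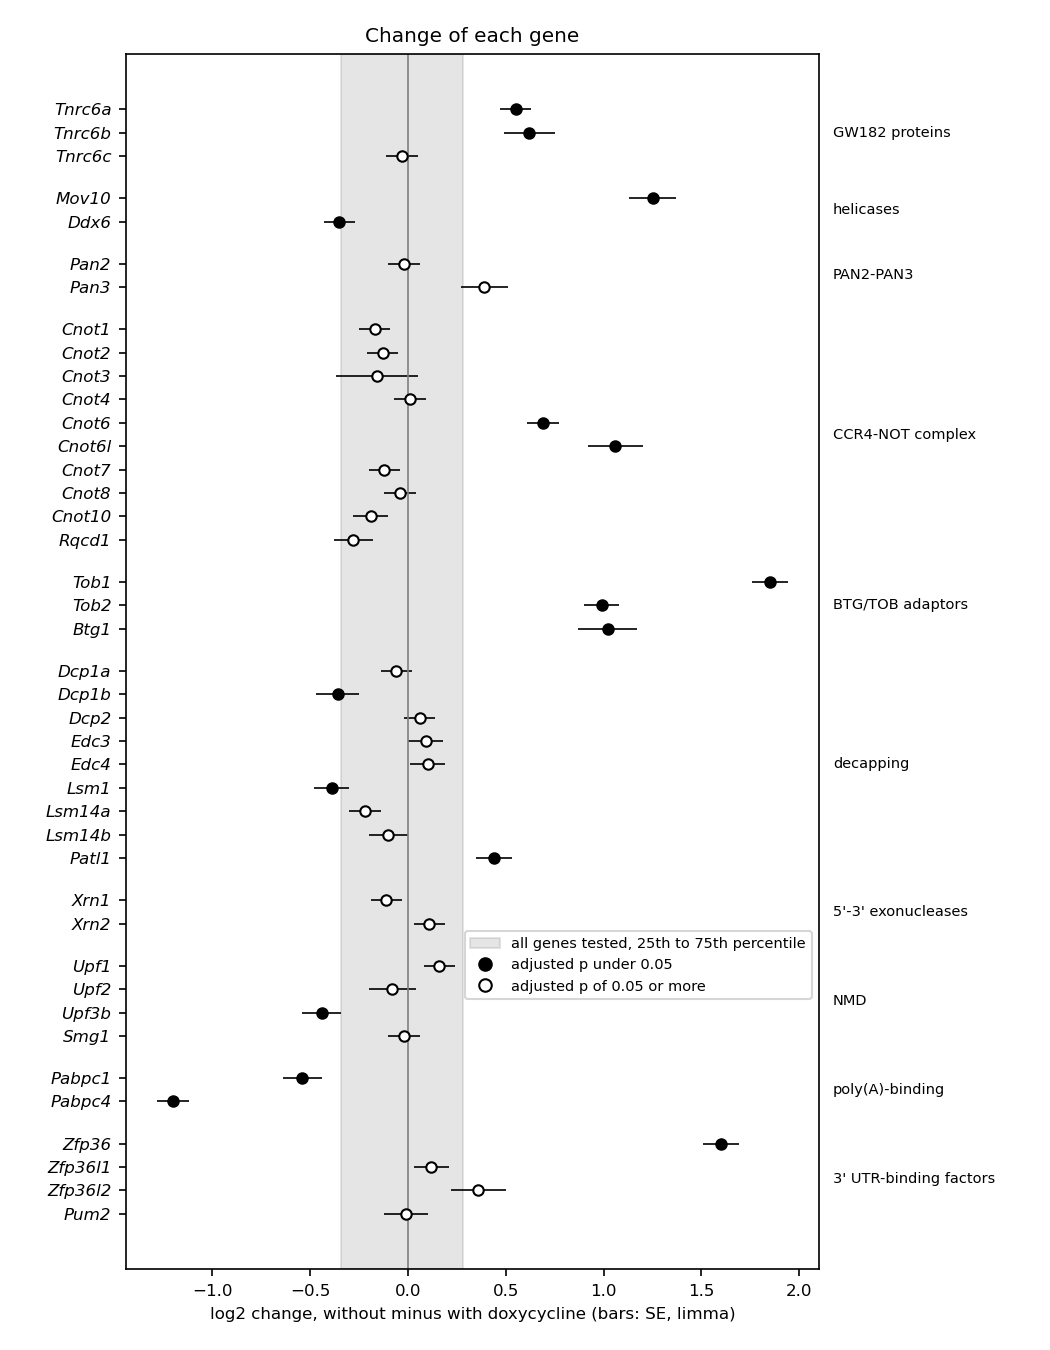
Log2 change of each gene, without minus with doxycycline on the log2(FPKM + 0.5) scale, with bars of 1 SE from limma. Filled points passed an adjusted p of 0.05, and the grey band spans the 25th to 75th percentile of all genes tested, -0.34 to 0.28. Tob1 lies farthest to the right at 1.85 and Pabpc4 farthest to the left at -1.20, and 25 open points gather around 0.

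The GW182 proteins are scaffolds whose glycine-tryptophan repeats hold Argonaute and whose silencing domain recruits the deadenylases. Tnrc6a and Tnrc6b were higher without doxycycline, and Tnrc6c did not pass the test. Tnrc6a (chromosome 7, 130267389 to 130338802, plus strand, build NCBIM37, as for all positions of genes below) measured 29.5 and 30.4 FPKM without doxycycline and 19.8 and 20.7 FPKM with it. Both libraries off the drug stood above both on it, by a log2 change of 0.55 (SE 0.08, limma adjusted p = 0.00687). Tnrc6b (chromosome 15, 80541299 to 80771516, plus strand), the lowest of the 3, measured 12.1 and 14.5 FPKM without and 7.76 and 9.15 FPKM with doxycycline. Again the groups did not overlap (0.62, SE 0.13, limma adjusted p = 0.0190). The Tnrc6b call was lost without the library off doxycycline numbered 1 (adjusted p = 0.0526) and without the library on doxycycline numbered 0 (0.0573). Tnrc6c (chromosome 11, 117515587 to 117627129, plus strand) measured 17.0 and 17.8 FPKM without and 17.5 and 18.1 FPKM with doxycycline. Its groups overlapped, with a log2 change of -0.03 (limma adjusted p = 0.781). Of the summed GW182 transcripts, Tnrc6c made up 29.0% and 28.4% without doxycycline against 38.8% and 37.7% with it. With the most abundant isoform alone, neither Tnrc6a (adjusted p = 0.442) nor Tnrc6b (0.370) was called. The 8471-nt form of Tnrc6a measured 16.6 and 8.01 FPKM without and 13.1 and 2.15 FPKM with doxycycline, and an 8476-nt form 0.115 and 9.82 FPKM without and 0.0450 and 11.0 FPKM with it. The division of reads between these forms of similar length differed more between the libraries of a condition than between conditions, while the summed values of a condition lay close together.

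The helicases linked to Argonaute and CCR4-NOT, Mov10 and Ddx6, changed in opposite directions. Mov10, an RNA helicase that associates with Argonaute complexes, was higher off the drug. It lies on chromosome 3 (104597754 to 104621481, minus strand) and measured 120 and 139 FPKM without doxycycline against 50.8 and 57.2 FPKM with it. Both values without doxycycline exceeded both values with it, and the means differed by 2.39 times (log2 change 1.25, SE 0.12, limma adjusted p = 0.00254). Nearly all of it, between 91.7% and 93.8% in each library, came from the 3498-nt isoform. Ddx6, the helicase that CCR4-NOT activates and that represses translation and promotes decapping, measured 57.9 and 55.6 FPKM without and 73.4 and 71.9 FPKM with doxycycline. Its values were lower in both libraries off the drug (-0.35, SE 0.08, limma adjusted p = 0.0223). The Ddx6 call did not survive leaving out any 1 of the 4 libraries, with adjusted p between 0.0527 and 0.158, nor with TPM (log2 change -0.20, adjusted p = 0.138) or with the most abundant isoform alone (0.337).

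PAN2-PAN3 is the deadenylase credited with the first trimming of long tails, with Pan2 as nuclease and Pan3 as the subunit that binds GW182 proteins. Pan3 measured 14.7 and 12.0 FPKM without and 10.0 and 10.0 FPKM with doxycycline. Those groups did not overlap, but the change of 0.39 (SE 0.12) narrowly missed the threshold (limma adjusted p = 0.0504), and it passed in 6 of 15 alternative analyses, among them that without the off-drug library numbered 1 (adjusted p = 0.0257). Pan2 measured 17.3 and 18.4 FPKM without against 18.0 and 18.3 FPKM with doxycycline, with overlapping groups (limma adjusted p = 0.844).

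Of the 10 CCR4-NOT genes, 2 were higher without doxycycline, none was lower and 8 were not called. Since 19.7% of all genes tested were higher and 21.3% lower, 2 higher genes of 10 are near the background. The higher genes of the complex were Cnot6 and Cnot6l, the alternative CCR4-type nuclease subunits, of which a complex carries a single one. Cnot6 (chromosome 11, 49484724 to 49526274, minus strand) measured 67.2 and 63.9 FPKM without doxycycline and 40.6 and 40.1 FPKM with it (log2 change 0.69, SE 0.08, limma adjusted p = 0.00409). Cnot6l (chromosome 5, 96499352 to 96593190, minus strand) measured 20.8 and 25.9 FPKM without and 10.2 and 11.6 FPKM with doxycycline (1.06, SE 0.14, limma adjusted p = 0.00496). For both genes all values off the drug exceeded all values on it. The longest annotated region of each holds an 8mer of the miR-290 and miR-302 family, printed above. The 8mer of Cnot6 begins at base 2142 of its region of 3690 nt. A whole isoform of 2498 nt made up 20.9% to 44.2% of Cnot6 FPKM in each library. Which of the expressed isoforms hold the sites was not read. The locus of Cnot6 also holds a short annotated transcript of another name, with a mean of 11.7 FPKM, whose reads may be shared. Cnot6 was not called with isoforms that match an annotated transcript alone (adjusted p = 0.120) or with the most abundant isoform alone (0.109).

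Neither CAF1-type nuclease subunit was called. Cnot7 measured 63.1 and 63.9 FPKM without and 69.3 and 68.9 FPKM with doxycycline, a small difference that did not pass (-0.12, limma adjusted p = 0.260). Cnot8 measured 35.0 and 33.9 FPKM without and 36.5 and 34.2 FPKM with doxycycline, and its groups overlapped (limma adjusted p = 0.742). The sum of Cnot6 and Cnot6l was thus 0.899 and 0.919 times that of Cnot7 and Cnot8 without doxycycline, against 0.480 and 0.502 times with it. None of the remaining 6 genes was called, namely the scaffold Cnot1, Cnot2 and Cnot3 of the NOT module, the ubiquitin ligase Cnot4, Cnot10 and Rqcd1 (the gene now named Cnot9). Their log2 changes lay between -0.28, for Rqcd1, and 0.01, for Cnot4. With library medians set equal, Cnot1, Cnot10 and Rqcd1 were called lower (limma adjusted p = 0.0456, 0.0387 and 0.0468), which made 2 of the 10 genes higher and 3 lower. That setting called 2366 of all 13207 genes tested higher and 3853 lower. Cnot1, the highest of the remaining 6 genes, measured 98.7 and 99.9 FPKM without and 113 and 111 FPKM with doxycycline.

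The BTG/TOB adaptors link the CAF1 nuclease to poly(A)-binding protein or to RNA-binding proteins, and they are known to restrain proliferation. All 3 members of the set were higher off the drug, and each kept its call in all 15 alternative analyses. Tob1 (chromosome 11, 94071160 to 94076809, plus strand) had the largest change of the 41 genes. It measured 45.0 and 41.6 FPKM without doxycycline against 12.1 and 11.1 FPKM with it, a 3.73-fold difference (log2 change 1.85, SE 0.09, limma adjusted p = 0.00141). Tob2 (chromosome 15, 81678700 to 81689226, minus strand) measured 10.5 and 10.7 FPKM without and 5.33 and 4.88 FPKM with doxycycline (0.99, SE 0.09, limma adjusted p = 0.00252). Btg1 (chromosome 10, 96079635 to 96085447, plus strand) measured 48.8 and 36.6 FPKM without and 21.4 and 19.9 FPKM with doxycycline (1.02, SE 0.15, limma adjusted p = 0.00727). In none of the 3 did the groups overlap, and only Btg1 varied widely between its libraries off the drug. Since Tob1 changed more than Tob2, the share of Tob2 in their sum was 18.9% and 20.4% without doxycycline and 30.5% and 30.6% with it. Most Tob1 RNA was the 2288-nt isoform, at 42.3 and 38.8 FPKM without and 11.5 and 10.1 FPKM with doxycycline.

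**Figure D3:**
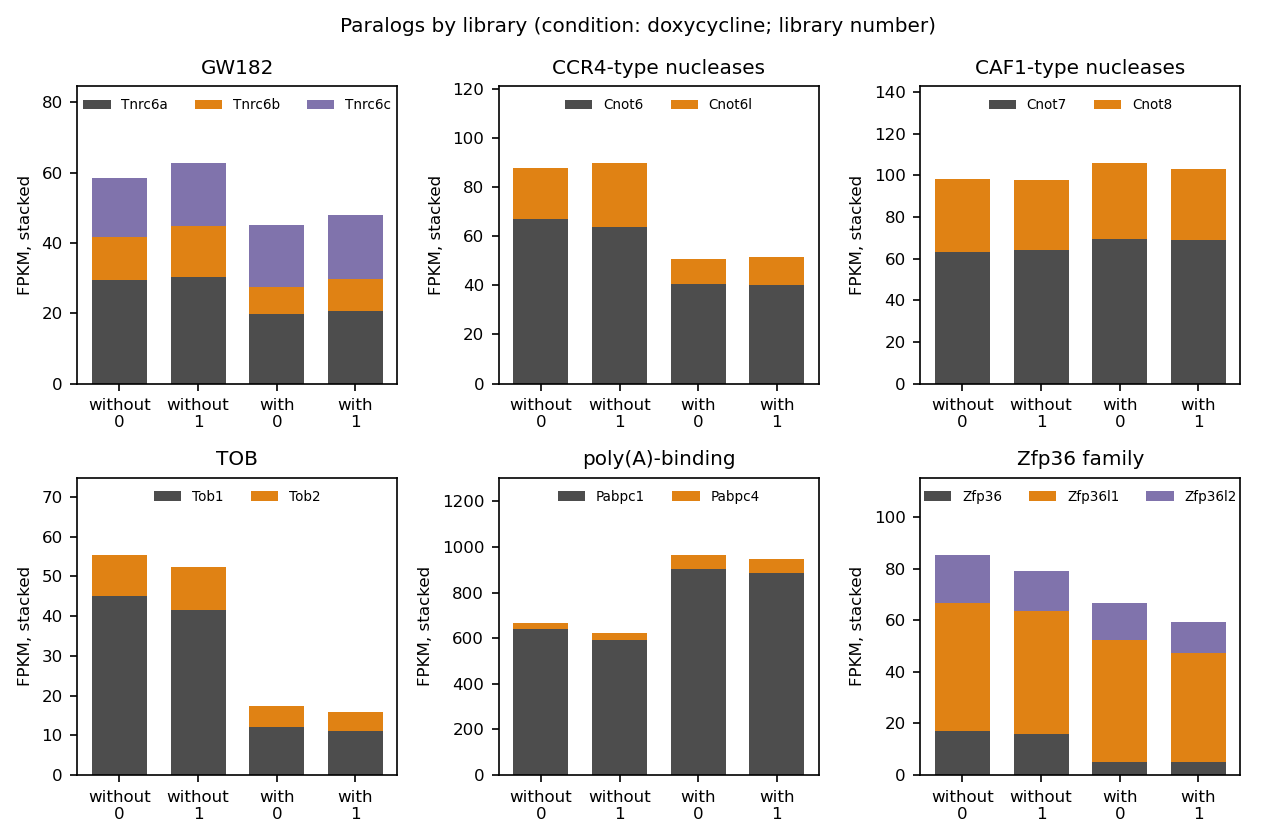
Stacked FPKM of paralogous genes in each library, with the libraries without doxycycline on the left of each panel and those with it on the right. The height of a bar is the family's sum. CCR4-type nucleases reach 88.1 and 89.9 FPKM without against 50.8 and 51.8 FPKM with doxycycline, CAF1-type nucleases 98.0 and 97.8 FPKM without against 106 and 103 FPKM with it, and poly(A)-binding proteins are lower without.

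Among the 9 decapping genes, 1 (11.1%) was higher, 2 (22.2%) were lower and 6 were not called. The shares over all genes tested were 19.7% and 21.3%, and no decapping gene's change exceeded 0.44 in size on the log2 scale. Patl1, the scaffold that joins the LSM ring to the decapping enzyme, averaged 28.0 ± 1.42 FPKM without doxycycline and 20.6 ± 0.843 FPKM with it. Its groups did not overlap (0.44, SE 0.09, limma adjusted p = 0.0159). Lsm1, the subunit that defines the cytoplasmic LSM ring, measured 27.1 and 30.2 FPKM without and 36.9 and 38.3 FPKM with doxycycline (-0.39, SE 0.09, limma adjusted p = 0.0252). Patl1 and Lsm1 both lost their call without the off-drug library numbered 0 (adjusted p = 0.0588 and 0.0890), without the on-drug library numbered 0 (0.0576 and 0.0954) and without the on-drug library numbered 1 (0.103 and 0.140). Lsm1 was also not called with TPM (-0.23, adjusted p = 0.0504) or with the most abundant isoform alone (0.0595). Dcp1b, a cofactor of the decapping enzyme, measured 4.11 and 4.06 FPKM without and 5.03 and 5.79 FPKM with doxycycline (-0.36, SE 0.11, limma adjusted p = 0.0450). Dcp1b, whose 8mer is printed above, had the lowest level of all members off the drug and kept its call in only 5 of 15 alternative analyses, and leaving out any single library gave adjusted p between 0.0621 and 0.235.

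The catalytic subunit and the other cofactors were not called. Dcp2 measured 28.4 and 30.0 FPKM without and 27.9 and 27.9 FPKM with doxycycline (log2 change 0.06, limma adjusted p = 0.558). Dcp1a measured 13.2 and 12.8 FPKM without and 13.4 and 13.8 FPKM with doxycycline, and so made up most of the DCP1 transcripts in every library. Of the LSM14 proteins, which bind DDX6, Lsm14a measured 62.4 and 62.8 FPKM without and 72.9 and 73.0 FPKM with doxycycline. Its libraries did not overlap, but the change of -0.22 did not pass (limma adjusted p = 0.0753), although it did with library medians set equal (0.0261). Lsm14b measured 27.4 and 29.6 FPKM without and 28.7 and 32.6 FPKM with doxycycline, with overlapping groups. Edc3 and Edc4, enhancers of decapping, changed by 0.09 and 0.10 and were not called, except for Edc4 with TPM (0.26, limma adjusted p = 0.0410).

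Neither 5′-to-3′ exonuclease was called. Xrn1, the cytoplasmic enzyme that degrades decapped RNA, measured 11.5 and 12.2 FPKM without doxycycline and 12.9 and 12.7 FPKM with it (-0.11, limma adjusted p = 0.335). Xrn2, its nuclear relative, measured 66.0 and 69.3 FPKM without and 62.8 and 62.8 FPKM with doxycycline (0.11, limma adjusted p = 0.336). Xrn1 thus supplied between 14.8% and 17.0% of their sum in each library. Of the nonsense-mediated decay genes, the helicase Upf1, the bridging factor Upf2 and the kinase Smg1 were not called, with log2 changes between -0.08 and 0.16. With TPM, Xrn2 (0.27) and Upf1 (0.32) were called higher (limma adjusted p = 0.0344 each). Upf3b, which connects the exon junction complex to UPF2, measured 14.5 and 16.6 FPKM without and 20.3 and 22.2 FPKM with doxycycline (-0.44, SE 0.10, limma adjusted p = 0.0252). Its values were lower in both libraries off the drug. The Upf3b call was lost without the off-drug library numbered 0 (adjusted p = 0.0847) and without the on-drug libraries numbered 0 (0.0522) and 1 (0.120).

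Both poly(A)-binding proteins, which coat the tail that deadenylases remove and stimulate translation, were lower off the drug. Pabpc4 (chromosome 4, 122939594 to 122976168, plus strand) measured 26.9 and 28.3 FPKM without doxycycline and 64.1 and 64.0 FPKM with it. The mean off the drug was 0.431 times that on it (log2 change -1.20, SE 0.08, limma adjusted p = 0.00170), and the call held in all 15 alternative analyses. Pabpc1 (chromosome 15, 36525416 to 36538728, minus strand), the most abundant member, measured 640 and 593 FPKM without and 902 and 884 FPKM with doxycycline (-0.54, SE 0.10, limma adjusted p = 0.0131). Its groups did not overlap either, but the call was lost without the on-drug library numbered 0 (adjusted p = 0.0930) and without that numbered 1 (0.0778). Processed copies of Pabpc1 exist elsewhere in the genome, and how the authors' counting divided reads among such copies is not given in the sources used here. Pabpc4 made up 4.03% and 4.55% of their sum without and 6.64% and 6.75% with doxycycline.

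Of the 4 proteins that bind 3′ untranslated regions, only Zfp36 passed the test. Zfp36 (chromosome 7, 29161803 to 29164274, minus strand), known as tristetraprolin, binds AU-rich elements and recruits CCR4-NOT. It measured 17.2 and 15.8 FPKM without doxycycline and 5.09 and 5.11 FPKM with it, a 3.24-fold difference (log2 change 1.60, SE 0.09, limma adjusted p = 0.00150). Its groups stood far apart, and the call held in all 15 alternative analyses. Zfp36l1, a relative with the same kind of zinc fingers, measured 49.3 and 47.6 FPKM without and 47.1 and 42.0 FPKM with doxycycline, and Zfp36l2 measured 18.9 and 15.6 FPKM without and 14.6 and 12.0 FPKM with it. Neither was called (limma adjusted p = 0.341 and 0.0950), and the difference between the paralogs was not tested. Zfp36l2 shares its locus in the assembly with Thada (mean 12.8 FPKM), so its reads may be shared. Pum2, a Pumilio protein that represses RNAs through its own recognition element, measured 46.2 and 40.8 FPKM without and 46.8 and 40.9 FPKM with doxycycline, and its groups overlapped (-0.01, limma adjusted p = 0.941).

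At the level of single isoforms no call was made. Limma called 0 of 44243 isoforms with at least 0.5 FPKM (smallest adjusted p = 0.0744), while 16.2% had an unadjusted p under 0.05. Among 189 isoforms of the members, 16 were higher and 14 lower at that unadjusted level, with a smallest adjusted p of 0.172. Some forms of 1 gene differed in sign. The 2498-nt form of Cnot6 measured 17.9 and 28.3 FPKM without and 8.50 and 10.2 FPKM with doxycycline, whereas its 2241-nt form measured 3.19 and 1.83 FPKM without and 6.26 and 6.39 FPKM with it. These values rest on the authors' division of reads between overlapping forms, and neither passed the adjustment (limma adjusted p = 0.214 and 0.224).

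Other genes of the same machinery, on 8 lists of 94 genes, were read beside the members. Of 17 genes of the RNA exosome, which degrades RNA from the 3′ end, and of the cofactors of the Ski complex, none was higher and 10 were lower off the drug (median log2 change -0.36), against 7 lower with TPM and 9 lower with the median change set to 0. The 10 are 58.8% of the list, beside 21.3% lower and 19.7% higher among all genes tested. With TPM 1917 of 14741 genes tested were lower, and 2297 of 13207 with the median change set to 0. Exosc1, Wdr61 and Hbs1l lost their calls without the off-drug library numbered 0 (adjusted p = 0.131, 0.0785 and 0.0984), the on-drug library numbered 0 (0.128, 0.118 and 0.0938) or that numbered 1 (0.231, 0.161 and 0.156), and Exosc1 also without the off-drug library numbered 1 (0.0535). Pelo, a factor that rescues stalled ribosomes, measured 8.56 and 10.9 FPKM without and 20.1 and 20.5 FPKM with doxycycline (-1.03, SE 0.13, limma adjusted p = 0.00489). The exosome core genes Exosc5 and Exosc2 changed by -0.89 and -0.86 (limma adjusted p = 0.00891 and 0.0137). The groups of all 3 were apart, and their calls held in all 15 alternative analyses. Of 12 other nonsense-mediated decay and exon junction genes, none was higher and 4 (33.3%) were lower (median -0.21), namely Magohb, Smg5, Rbm8a and Rnps1, and Rbm8a and Rnps1 lost their calls without the off-drug library numbered 0 (adjusted p = 0.117 and 0.0731) and without the on-drug libraries numbered 0 (0.0749 and 0.0667) and 1 (0.169 and 0.143). Smg5, an adaptor that binds phosphorylated UPF1, measured 31.7 and 34.4 FPKM without and 50.7 and 52.5 FPKM with doxycycline (-0.64, limma adjusted p = 0.00559). Magohb changed by -1.15 (limma adjusted p = 0.00281) from low values, and its near-identical paralog Magoh, which may share its reads, was not called.

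On the list of 10 other deadenylation genes, 2 were higher, 1 was lower and 7 were not called. These counts do not stand out from the 19.7% higher and 21.3% lower among all genes tested. Of the BTG genes on the list, Btg3 measured 10.1 and 12.5 FPKM without and 12.4 and 12.7 FPKM with doxycycline. Its groups overlapped, and it was not called (-0.16, limma adjusted p = 0.335). Btg2 measured 31.3 and 28.9 FPKM without and 9.24 and 8.14 FPKM with doxycycline (1.74, SE 0.10, limma adjusted p = 0.00151). Noct, a CCR4-like protein, was lower with 34.3 and 33.3 FPKM without and 50.6 and 49.4 FPKM with doxycycline (-0.56, limma adjusted p = 0.00630). The Noct call was lost with annotated isoforms alone (adjusted p = 0.537), and taking just the most abundant isoform turned the log2 change to 0.15. Angel1, another relative of CCR4, was higher by 0.36 (limma adjusted p = 0.0228), a call lost without any 1 of the 4 libraries. Of 13 other decapping and translational repression genes tested, 1 (7.69%) was higher, Nudt3 (0.31), and 2 (15.4%) were lower, Lsm3 (-0.61) and Lsm4 (-0.39), both subunits of the LSM rings. These 3 calls were lost without the off-drug library numbered 0 (adjusted p = 0.0852, 0.106 and 0.115) and without the on-drug library numbered 1 (0.123, 0.137 and 0.165). Of 24 other regulators that bind 3′ untranslated regions, 3 were higher and 4 lower, namely Cpeb2, Zc3h12a and Rc3h2 against Cpeb1, Ybx1, Tial1 and Elavl1 (12.5% and 16.7%, against 19.7% and 21.3% of all genes tested). With TPM the list had 7 higher and 2 lower, while 3996 of all 14741 genes tested were higher and 1917 lower. Elavl1, Tial1 and Ybx1 lost their calls without the off-drug library numbered 0 (adjusted p = 0.0718, 0.0644 and 0.101), the on-drug library numbered 0 (0.236, 0.150 and 0.0586) or that numbered 1 (0.248, 0.0818 and 0.168), and Rc3h2 without the on-drug library numbered 0 (0.0788) or 1 (0.0643). Zc3h12a, an endonuclease that cuts stem-loops, measured 6.89 and 7.47 FPKM without and 4.47 and 4.89 FPKM with doxycycline (0.57, limma adjusted p = 0.0109). Cpeb1 and Cpeb2, which bind cytoplasmic polyadenylation elements, averaged 1.19 and 1.58 FPKM without and 2.81 and 0.745 FPKM with doxycycline (log2 changes -0.99 and 0.73). Cpeb2 reached the minimum for testing only through its libraries off the drug, so its call is no support for a difference. Paip2, an inhibitor of poly(A)-binding protein, was the 1 called gene of the 4 tested on the list of other poly(A)-binding proteins and their partners (-0.39, limma adjusted p = 0.0214), but not without the off-drug library numbered 0 (0.0764) or the on-drug libraries numbered 0 (0.125) and 1 (0.128). Mtpap, the mitochondrial poly(A) polymerase, was the 1 called gene of 5 on the terminal uridylation list (-0.61, limma adjusted p = 0.00759). Beside 21.3% lower among all genes tested, 1 lower gene of 4 or of 5 is near the background. Over the alternatives the adjusted p of Zc3h12a reached 0.0743, that of Mtpap 0.137 and that of Cpeb1 0.131. Ago3 was lower, at 6.28 and 7.43 FPKM without and 20.3 and 18.3 FPKM with doxycycline (-1.43, SE 0.12, limma adjusted p = 0.00215), while Ago1, which the assembly puts in the same locus, was listed at 0 in every library. How reads were shared between Ago1 and Ago3 is therefore uncertain, and Ago4 was below the minimum for testing.

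**Figure D4:**
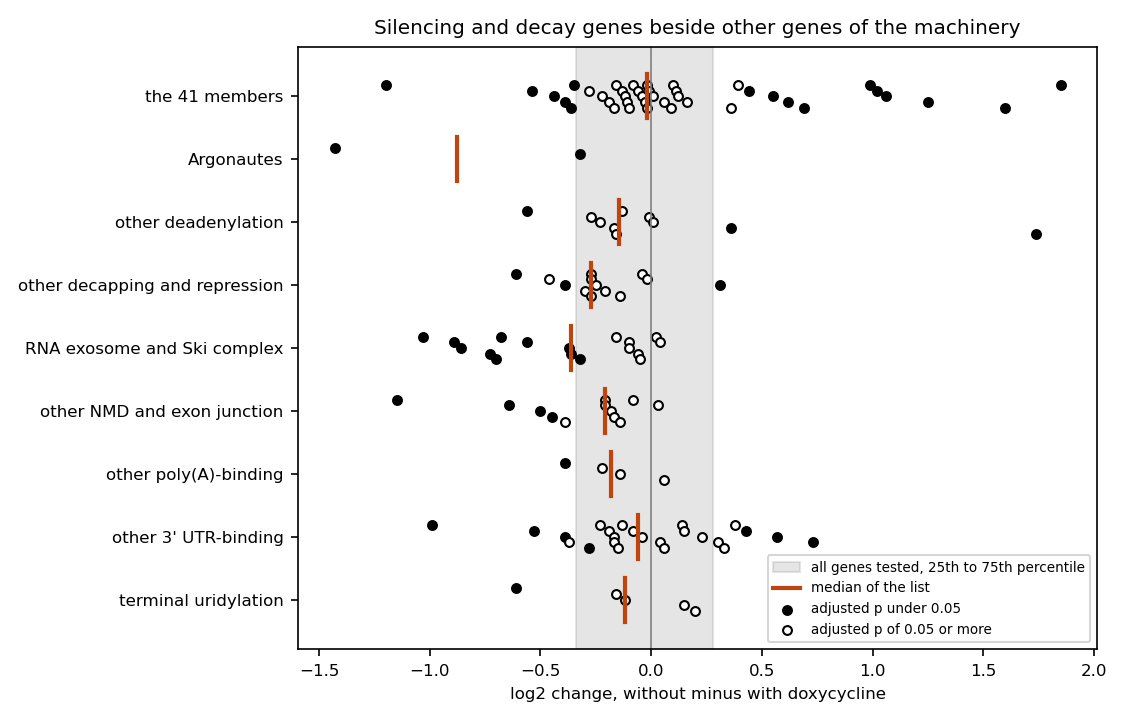
Log2 change, without minus with doxycycline, of the 41 members and of the genes tested on 8 lists of related machinery, one row per list. Filled points passed limma at an adjusted p of 0.05, the orange-red bar is the list's median, and the grey band spans the 25th to 75th percentile of all genes tested. The filled points of the RNA exosome and Ski complex row all lie below 0, and those of the members lie on both sides.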

How the data were processed

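Strand-specific polyA libraries of 2 conditions were compared, and 2 spike-in samples of the series were not analysed here. The deposited values are the authors' FPKM per isoform. The submitters' processing notes name TopHat2 (2.0.9), Cufflinks (2.1.1) and the genome build NCBIM37. The library total behind the scaling is not given in the sources used here. The table of all 4 libraries and one of the doxycycline libraries alone each came as a pair of identical copies. Of the 362054 values that both hold, 5447 differed, the most by 0.48%, and the first was used. Its symbols that had become dates, on 236 isoforms, were restored from the second.

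Of 181027 isoforms, 141569 were used, being named, at least 200 nt long and matching an annotated transcript or sharing a junction with one. This kept 376 of the members' 377 isoforms and left out an antisense one at Zfp36l1. FPKM was summed per gene. A two-sided limma test (3.58.1, in R 4.3.3) with a mean-variance trend, on 2 residual and 3.21 prior degrees of freedom, covered every gene that averaged 1 FPKM or more in a condition. Its p-values were adjusted by Benjamini-Hochberg over these 13207 genes, with the threshold at 0.05 and the pseudocount at 0.5. With 2 libraries a condition, a permutation test could not go below p = 0.333 and was not used. The numbers in the columns could not be tied to the replicate numbers of the labels, so libraries were unpaired.

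The members and lists were chosen with earlier results of these data known. Values in every library were given by rule for the GW182 genes, members called with a log2 change of at least 0.5 in size, and paralog pairs, with up to 3 called genes a list from the 8 further lists. Other values per library, Magoh and the genes named in counts of 5 or fewer were added after their values were seen. The 15 alternatives varied the pseudocount, the filters, the scaling, the isoforms, a block on the number and the libraries. The fit was tested on simulated data. Seed matches were read on the transcript strand, and microRNA sequences were RefSeq's. Depth was read from steps of whole reads in transcripts with a single isoform. Python 3.11.15, numpy 2.4.6, pandas 2.3.3 and matplotlib 3.10.9 did the rest.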

Additional observations from a re-analysis of the deposited data

How the results depend on the processing

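Mov10, Cnot6l, Tob1, Tob2, Btg1, Pabpc4 and Zfp36 passed limma in the same direction in all 15 alternatives. The other 9 called members lost the call in at least 1 of them, and no called member changed sign. Against 10 higher and 6 lower members, the lower count was 3 with no filter on low values, 10 with library medians set equal, 3 with TPM and 2 with the most abundant isoform alone. All calls, 5417, were 2053 with the most abundant isoform alone and 2590 with annotated isoforms alone. Leaving out 1 library gave 8 to 10 higher and 1 to 4 lower members and 3229 to 4416 calls in all. Same-numbered libraries deviated together (correlation 0.461), but the labels do not pair them. With the number as a block, 12 members were higher and 10 lower, of 8157 calls. TPM moved the median log2 change of all genes to 0.10, against -0.06, and setting that median to 0, added after seeing the data, gave 11 higher and 5 lower members.

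Sign changes were all of members not called. With TPM, Tnrc6c was at 0.13, Pan2 at 0.14, Cnot2 at 0.03, Cnot3 at 0.00, Cnot7 at 0.04, Cnot8 at 0.12, Dcp1a at 0.09, Lsm14b at 0.06, Xrn1 at 0.05, Upf2 at 0.08, Smg1 at 0.14 and Pum2 at 0.15. With the most abundant isoform, Tnrc6c was at 0.11, Pan2 at 0.08, Pan3 at -0.02, Cnot4 at -0.14, Dcp1a at 0.03, Smg1 at 0.09 and Pum2 at 0.25. With annotated isoforms alone, Pan2 was at 0.01, Cnot10 at 0.57, Lsm14b at 0.01, Smg1 at 0.09 and Pum2 at 0.09. With the median set to 0, Tnrc6c was at 0.02, Pan2 at 0.03, Cnot8 at 0.02, Smg1 at 0.04 and Pum2 at 0.04, and with library medians set equal, Cnot4 was at -0.06. Leaving out 1 library gave -0.06 to 0.00 for Tnrc6c, -0.06 to 0.02 for Pan2, -0.41 to 0.09 for Cnot3, -0.19 to 0.04 for Upf2, -0.11 to 0.08 for Pum2, -0.01 to 0.02 for Cnot4, -0.08 to 0.01 for Cnot8 and -0.04 to 0.00 for Smg1. The cause was not tested. At isoforms of at least 1 FPKM, limma again called 0, of 32943, with 6053 at an unadjusted p under 0.05. Where depth could be read, 3 reads on 2000 nt were worth 0.0352 FPKM without and 0.0355 FPKM with doxycycline.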
